A study of Bos taurus with 22 samples.

Results

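The comparison set 6 Holstein steers that received postruminal casein together with exogenous glucagon-like peptide 2 (GLP-2) against 5 control steers that received neither. These are 11 of the 22 steers with deposited RNA sequencing data. The 11 libraries were taken by their treatment labels, and every gene of the count table was considered. All steers were 10 to 12 months old and carried a common background, a continuous infusion of raw corn starch into the abomasum (the glandular stomach of cattle) at 3.94 g/kg of body weight per day, so no group stands for cattle without starch flowing to the small intestine. The casein + GLP-2 steers received 1.30 g of sodium caseinate per kg of body weight per day through the same route and 100 µg of synthetic bovine GLP-2 per kg of body weight per day under the skin for 7 d. Control steers received water in place of casein, and bovine serum albumin in saline in place of GLP-2. Steers had been randomised within blocks of similar body weight, the replicate number is that block, and each replicate is a separate steer. Body weight averaged 253.2 ± 24.9 kg (SD, n = 6) in the casein + GLP-2 group and 242.6 ± 18.8 kg (SD, n = 5) in the control group. The measured tissue was mucosa scraped from the middle of the jejunum after 7 d of infusion. The remaining 11 steers received GLP-2 without casein (n = 5) or casein without GLP-2 (n = 6), and they enter below where the combined treatment is set against its parts.

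GLP-2 is a peptide hormone that L cells of the lower intestine release after a meal, and it is known for enlarging the small intestinal mucosa. Its receptor is found on enteric neurons, subepithelial myofibroblasts and some endocrine cells rather than on most absorptive cells, so its actions on the epithelium are thought to pass through relayed growth factors and neuropeptides. In cattle, starch that escapes the rumen is cut to maltose and short glucose chains by pancreatic amylase, split to glucose by disaccharidases of the enterocyte brush border, carried into the cell by the sodium-coupled transporter SGLT1 (gene SLC5A1) and released to blood through GLUT2 (SLC2A2). More protein reaching the small intestine is known to raise pancreatic amylase and starch digestion in cattle. The comparison asks how the jejunal transcriptome differs when both are supplied at once.

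Deposited gene counts summed to between 8809666 and 18569748 per casein + GLP-2 library (median 12050039.5) and to between 11490049 and 20655744 per control library (median 12091162). Of 27570 genes in the table, 21855 had at least 1 count and 15086 had enough counts to be tested. Below, CPM is the usual counts-per-million level of a gene after scaling library totals by the trimmed mean of M-values, and the 5 control values of a gene are given in the order of control steers 1 to 5, while the 6 casein + GLP-2 values are given as the lowest, the median and the highest. Enterocyte markers were present in every one of the 11 libraries. VIL1, the villin of microvilli, lay between 362 and 3340 CPM in the control group and between 1740 and 4150 CPM in the casein + GLP-2 group. APOA1, an apolipoprotein that enterocytes secrete, reached 505 CPM or more in every control steer and 5130 CPM or more in every casein + GLP-2 steer. Of 7 erythrocyte genes in the table none had enough counts to be tested, and the highest count of any was 29 in a control library.

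Control libraries differed widely among themselves in transcripts of other cell types. A score for B cell follicles, the mean log2 CPM of 27 genes of organised lymphoid tissue such as a Peyer's patch, was 5.41, 1.04, 6.60, 3.27 and 5.89 in control steers 1 to 5. In the casein + GLP-2 group it ran from 0.55 to 2.43 (median 1.45), so control steers 1, 3 and 5 stood far above all 6 treated steers and control steer 2 stood among them. Summed over the 27 genes, the level ran from 208 to 4010 CPM (median 2040) in the control group and from 172 to 270 CPM (median 195) in the casein + GLP-2 group. A smooth muscle score over 17 genes was 3.11, 2.72, 5.85, 3.71 and 6.78 in control steers 1 to 5, against 2.69 to 4.57 in the casein + GLP-2 group. Control steers 3 and 5 were thus the highest for muscle as well. FABP6, the bile acid binding protein of the ileum, was at 110, 0.794, 221, 18.4 and 13.3 CPM in control steers 1 to 5. It reached 8.82 CPM at most in a casein + GLP-2 steer. The score over 9 ileal bile acid genes that include FABP6 did not share this pattern. It was 4.56, 4.73, 3.93, 5.09 and 3.10 in control steers 1 to 5, against 4.22 to 4.92 in the casein + GLP-2 group. In bulk tissue, fewer cells of a type and less RNA per cell cannot be told apart. The part of follicle, muscle or other tissue in the differences below was not tested. Values are given with and without control steers 1, 3 and 5, and some with a follicle or smooth muscle score as a covariate. Leaving these steers out cannot tell 1 tissue from another, since control steers 3 and 5 were high for follicle and muscle alike.

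**Figure D1:**
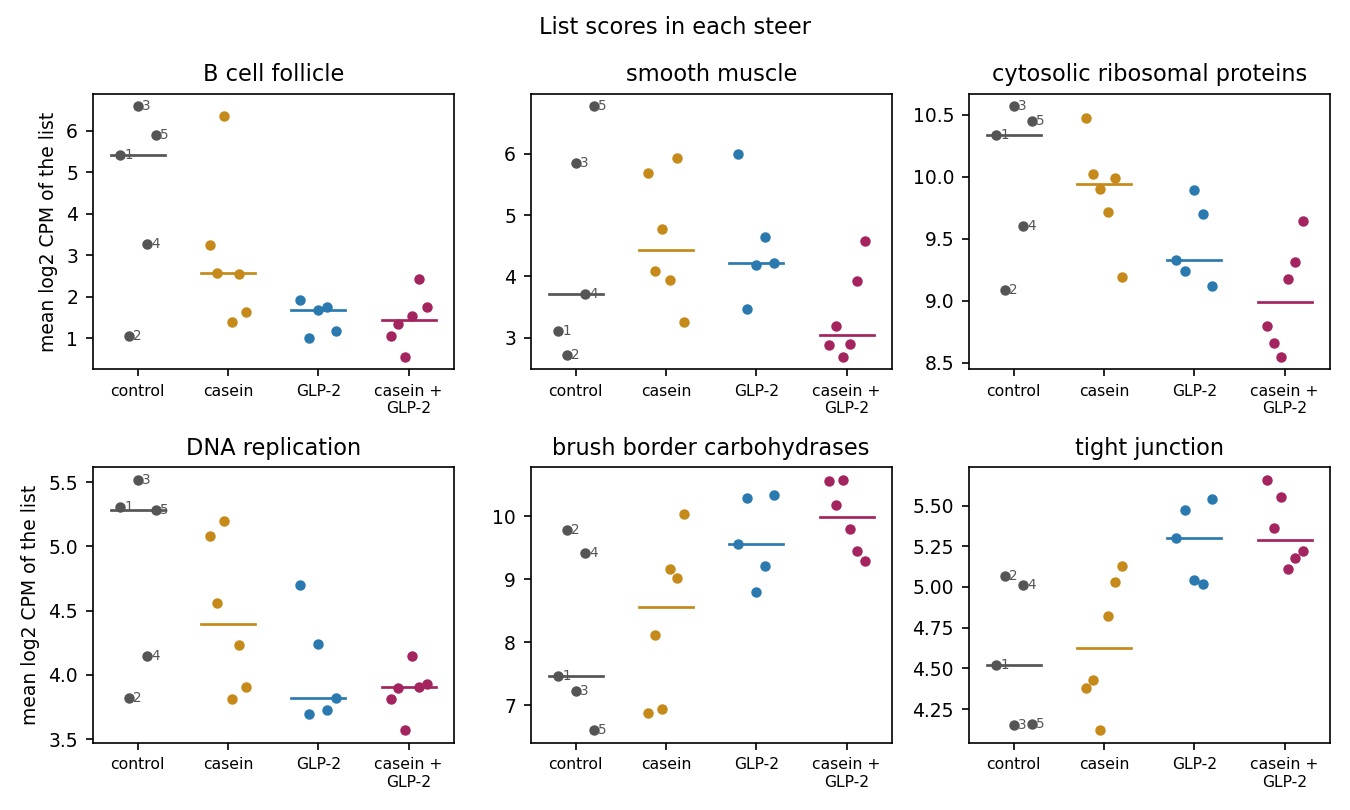
Mean log2 CPM of the tested genes of 6 gene lists (vertical axes) in each steer of the 4 treatments, with control steers numbered and bars at medians. Control steers 1, 3 and 5 are highest in the B cell follicle panel at 5.41, 6.60 and 5.89, while the 6 casein + GLP-2 steers lie between 0.55 and 2.43.

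With edgeR's quasi-likelihood test across all 22 steers, casein + GLP-2 changed 773 genes against control (adjusted p ≤ 0.05). Of these, 187 rose (1.24% of the genes tested) and 586 fell (3.88%). A further 519 higher and 861 lower genes had an adjusted p between 0.05 and 0.1, which is called a tendency below. At the 0.05 level before adjustment, edgeR placed 1764 genes higher (11.7%) and 2420 lower (16.0%), and such genes are called nominally different below. DESeq2's Wald test called 677 higher (4.49%) and 1400 lower (9.28%), and 764 genes were called by both tools. The genes that rose had a median absolute log2 difference of 1.06 and a median length of 4063 bases. Those that fell had a median absolute log2 difference of 1.19 and a median length of 1832 bases, against 2404 bases for genes that were not called. Length moved with direction, and after a loess correction of the counts for gene length 101 genes were called higher and 771 lower, so that the share of calls that were higher was 11.6% in place of 24.2%. Over all genes tested the balance was near even, with 7596 log2 differences above 0 and 7490 below 0 (50.4% above).

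**Figure D2:**
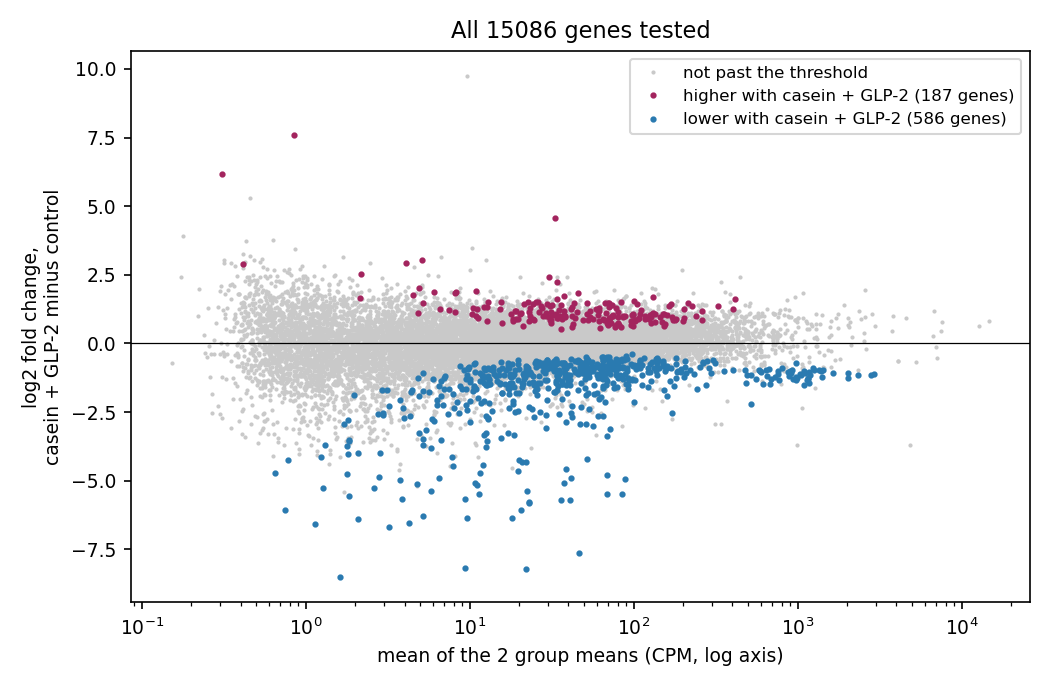
Log2 difference of casein + GLP-2 from control (vertical axis) against the average of the 2 group mean CPM (horizontal log axis) for each of the 15086 genes tested, with the 187 genes that rose and the 586 that fell coloured. The lower genes reach further from 0 than the higher genes, and the uncoloured genes are spread evenly about 0.

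These calls depended on how the block and a few steers were treated, and in edgeR on the inclusion of the other 2 treatments. With the body-weight block in the model, 0 genes passed the adjusted threshold in edgeR (smallest adjusted p 0.0816), 3622 genes were nominally different, and all 773 differences kept their sign. The same count of 0 was reached when control steer 1, 3 or 5, or casein + GLP-2 steer 2, 3 or 4, was left out, and 3 genes were called without casein + GLP-2 steer 1. Without control steer 2, whose follicle score lay among the treated steers, 3449 genes were called. Without control steers 1, 3 and 5 together, 0 genes were called by edgeR, 310 genes were nominally different, and 755 of the 773 differences kept their sign with only control steers 2 and 4 left. With the follicle score as a covariate, 0 genes were called, 587 were nominally different, and 700 of the 773 kept their sign. The smooth muscle score as a covariate also left 0 calls. With only the steers of the 2 treatments compared, edgeR called 0 genes (smallest adjusted p 0.0741), while DESeq2 called 1669. Every rise or fall named from here on is a call of the model without the block, and each lost its adjusted significance with the block, with the follicle score as a covariate and without control steers 1, 3 and 5.

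**Figure D3:**
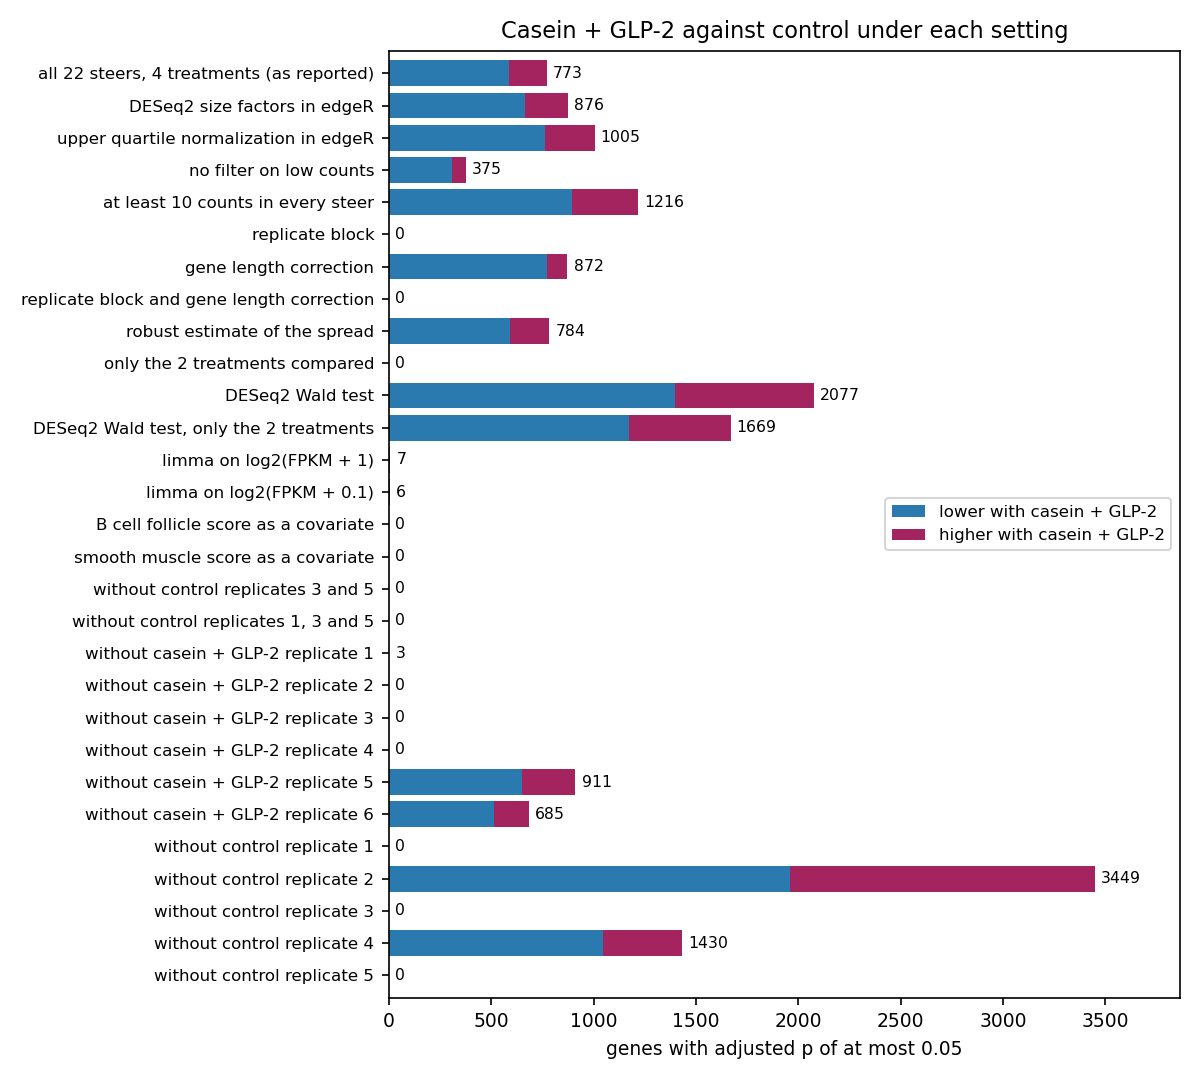
Number of genes called (horizontal axis, genes with adjusted p ≤ 0.05) for casein + GLP-2 against control under each way of processing the counts or leaving out steers (vertical axis). Counts run from 0, reached with the body-weight block and without control steer 1, 3 or 5, to 3449 without control steer 2.

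The 12 named genes with the smallest p among those that rose had log2 differences between 0.94 and 2.94 (median 1.46), and in 8 of them the 2 groups did not overlap. Over all genes tested, 1.04% lay without overlap above control and 1.23% below, and these 12 were chosen by their p in the same comparison. MFSD11 (ENSBTAG00000018260, chr19:55014709-55043048 on the minus strand of ARS-UCD1.2), a membrane protein of the major facilitator superfamily of transporters, was at 35.6, 44.5, 25.2, 47.1 and 32.6 CPM in the control steers and at 62.7, 70.7 and 82.9 CPM (lowest, median, highest) with casein + GLP-2. All 6 treated steers stood above every control steer, a log2 difference of 0.95 ± 0.16 (SE; 95% interval 0.61 to 1.29; edgeR adjusted p = 0.0301). INSR (ENSBTAG00000012687, chr7:16058828-16183062, minus strand), the insulin receptor, was at 4.56, 14.3, 5.57, 8.67 and 7.37 CPM in control steers and at 16.9, 21.0 and 37.7 CPM in treated steers. Its groups did not overlap either, and it rose by 1.51 ± 0.33 on the log2 scale (edgeR adjusted p = 0.0354). PFKFB2, whose product sets the level of fructose 2,6-bisphosphate and so the pace of glycolysis, was at 13.6, 27.4, 15.9, 28.9 and 13.8 CPM in control steers, all below the 35.8, 51.1 and 152 CPM of treated steers. It rose by 1.84 ± 0.40 (edgeR adjusted p = 0.0354).

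Others of this group act in signalling, cell shape and lipid assembly. POFUT1, which adds fucose to Notch receptors, was at 24.1, 34.8, 16.1, 45.3 and 17.5 CPM in control steers and at 51.0, 78.6 and 97.4 CPM in treated steers. SMAD1, which carries bone morphogenetic protein signals to the nucleus, was at 30.8, 38.8, 24.1, 36.8 and 19.9 CPM against 44.4, 53.4 and 83.5 CPM. In both genes the treated steers lay wholly above the control steers. MOGAT1, a monoacylglycerol acyltransferase that starts the rebuilding of triglyceride, was at 15.7, 15.5, 4.16, 21.9 and 8.14 CPM against 21.5, 36.1 and 57.6 CPM, so that 5 of 6 treated steers exceeded all control steers. MYO10, an unconventional myosin of filopodia, rose by 1.46 ± 0.29 and KIF3B, a subunit of kinesin-2 motors, by 1.15 ± 0.23 (edgeR adjusted p = 0.0354 for each). The largest log2 difference of the 12 was that of EDIL3, a secreted ligand of integrins, at 2.94 ± 0.62, but it was scarce, with 0.601, 1.06, 0, 2.42 and 0.543 CPM in control steers and 2.52, 7.09 and 12.6 CPM in treated steers. HYKK, KIAA1217 and HTR6 completed the group. Without control steers 1, 3 and 5 the 12 log2 differences ran from 0.61 to 2.03 (median 0.96), none of them called.

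The 12 named genes with the smallest p among those that fell had log2 differences between -4.64 and -0.78 (median -1.64), and 6 of them did not overlap between groups. SIT1 (ENSBTAG00000011411, chr8:59827546-59829096, minus strand), a signalling adaptor of lymphocyte membranes, had the smallest p of all genes. It was at 88.7, 34.7, 106, 36.3 and 85.9 CPM in control steers and at 15.5, 22.3 and 24.0 CPM in treated steers, a log2 difference of -1.71 ± 0.27 (edgeR adjusted p = 0.0154). Control steers 1, 3 and 5 were the high ones, and control steers 2 and 4 also exceeded all 6 treated steers. LIMD2, a small LIM domain protein, was at 232, 159, 376, 166 and 269 CPM against 69.2, 89.1 and 135 CPM, again without overlap (-1.38 ± 0.22, edgeR adjusted p = 0.0154). CORO1A, an actin-binding coronin of leukocytes, was at 868, 532, 1350, 439 and 772 CPM against 247, 317 and 387 CPM (-1.29 ± 0.26).

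Several of these 12 are genes of B cells or of lymphoid follicles. CD79A (ENSBTAG00000001882, chr18:51344675-51348682, minus strand), a chain of the B cell antigen receptor, was at 98.0, 4.94, 215, 18.3 and 154 CPM in control steers and at 1.97, 5.66 and 7.91 CPM in treated steers. Control steer 2 lay within the treated range, and only 2 of 6 treated steers were below every control steer, so that the log2 difference of -4.20 ± 0.81 (edgeR adjusted p = 0.0354) rested on the other control steers. MEF2B, a transcription factor of germinal centre B cells, was at 34.7, 2.03, 93.5, 4.56 and 54.5 CPM against 0.773, 1.68 and 2.05 CPM. S1PR2, a sphingosine 1-phosphate receptor that holds B cells in germinal centres, was at 45.9, 19.6, 116, 14.2 and 54.8 CPM against 4.04, 8.50 and 11.3 CPM, without overlap. Of the others, THOC3, DDX39A and ALYREF belong to the complex that readies mRNA for export from the nucleus. DDX39A was at 137, 123, 174, 102 and 155 CPM in control steers and at 70.0, 79.0 and 93.1 CPM in treated steers, a difference of -0.78 ± 0.15 without overlap (edgeR adjusted p = 0.0354). SNU13, HMCES and ZNF296 completed the group. With the follicle score as a covariate the 12 log2 differences shrank to between -0.94 and -0.38 (median -0.57). Without control steers 1, 3 and 5 they ran from -1.13 to -0.42 (median -0.72). CD79A and MEF2B are themselves among the 27 genes of the follicle score, on which control steers 1, 3 and 5 were the highest. For CD79A and MEF2B the shrinkage in both fits was therefore built in. All 12 genes were chosen by their p with these steers included, and all 12 had their highest control levels in control steers 1, 3 and 5. Shrinkage without these steers, or with a score that is high in them, was thus largely built in for the others too.

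**Figure D4:**
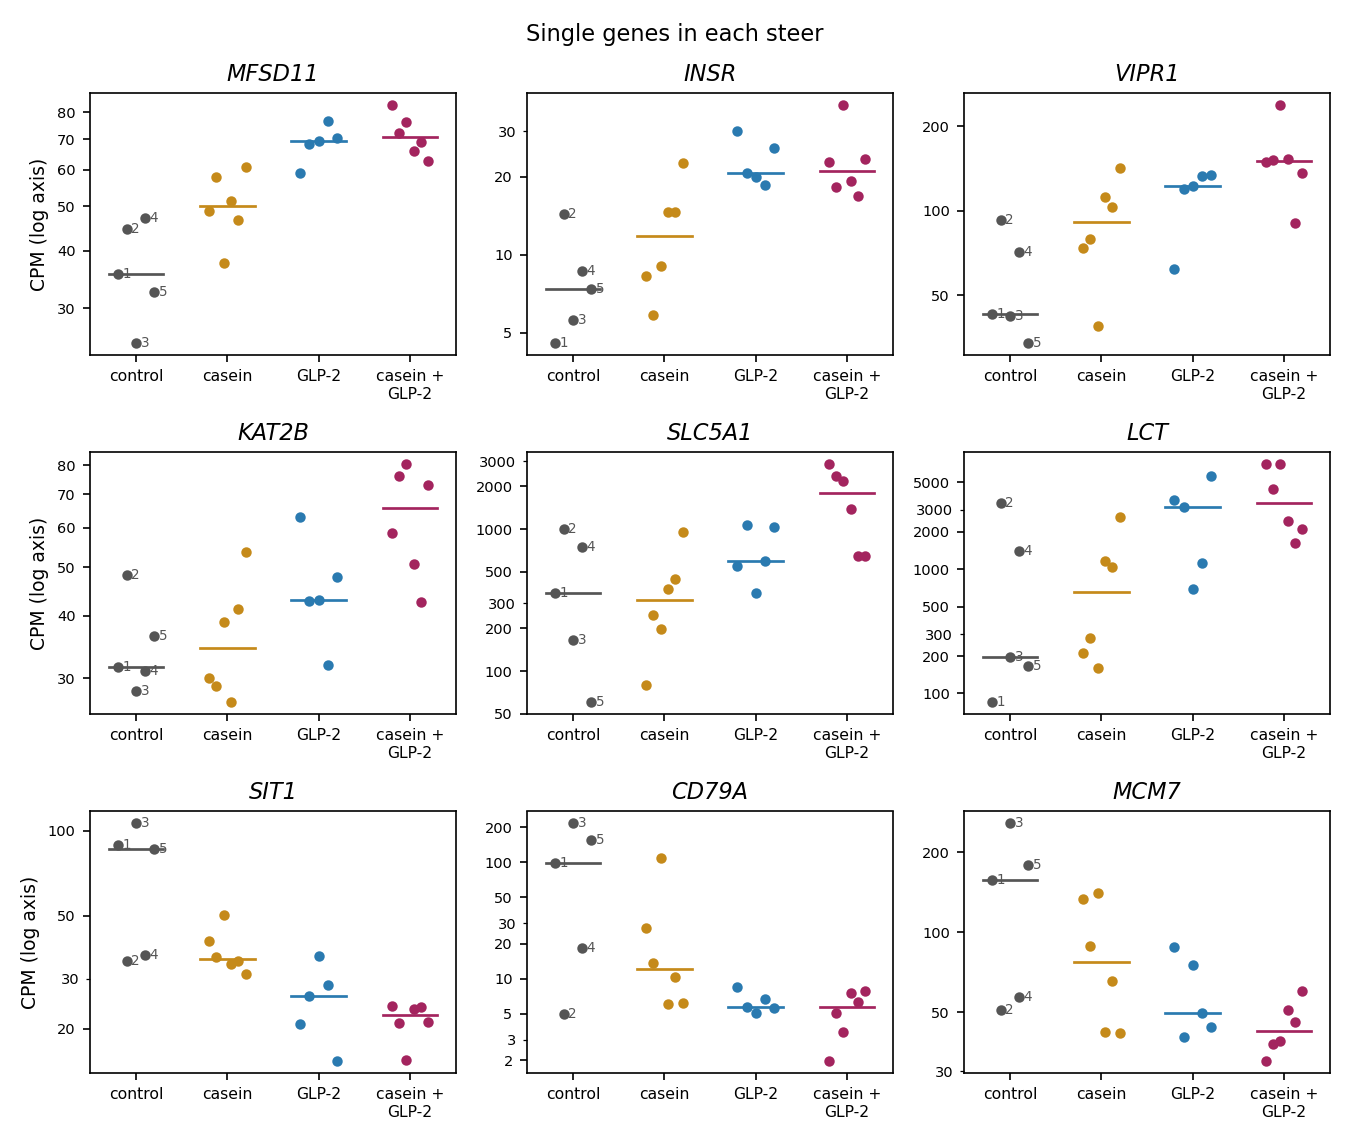
CPM (vertical log axes) of MFSD11, INSR, VIPR1, KAT2B, SLC5A1, LCT, SIT1, CD79A and MCM7 in each steer of the 4 treatments. MFSD11, INSR and SIT1 separate the casein + GLP-2 steers from the control steers without overlap, whereas CD79A, MCM7, SLC5A1 and LCT have control steers within the treated range.

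Of 894 different genes tested on 37 lists of intestinal functions and cell types, 12 rose and 124 fell in edgeR, and no list held genes that edgeR called in both directions. DESeq2 called genes both ways on the tight junction list (8 higher, 1 lower), the insulin and PI3K list (1 and 1) and the Wnt list (1 and 4). Counts of calls below are edgeR's unless DESeq2 is named. The lists had been written from general knowledge and not from these samples, although earlier results of these data were known, so their counts are set beside the 1.24% and 3.88% of all genes that rose and fell and are not tested as sets. Some of them, such as tight junctions, sphingolipids and ribosomal proteins, cover pathways that the study had singled out in these steers, and their direction is then not independent evidence.

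In edgeR no carbohydrase or hexose transporter of starch digestion passed the test, while DESeq2 called 1 of the 3 hexose transporters, SLC5A1, and the treated medians were the higher ones throughout. SI, the sucrase-isomaltase, was at 638, 733, 222, 856 and 230 CPM in control steers and at 747, 1150 and 1310 CPM in treated steers (log2 difference 1.05 ± 0.48, edgeR adjusted p = 0.156). LCT, the lactase, ranged from 85.5, 198 and 166 CPM in control steers 1, 3 and 5 to 3390 and 1410 CPM in control steers 2 and 4, against 1620, 3420 and 6960 CPM in treated steers (1.96 ± 0.88, edgeR adjusted p = 0.154). MGAM, the maltase-glucoamylase, had a log2 difference of 1.58 ± 0.75 (edgeR adjusted p = 0.176) and TREH, the trehalase, one of 0.74 ± 0.40 (edgeR adjusted p = 0.234). The median over the 4 carbohydrases was 1.31, against 0.006 over all genes, and it was 0.46 without control steers 1, 3 and 5.

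SLC5A1 (ENSBTAG00000012851, chr17:70570574-70620771, plus strand), the apical glucose transporter SGLT1, came nearest to a call. It was at 353, 1010, 166, 751 and 60.6 CPM in control steers and at 647, 1780 and 2860 CPM in treated steers, with 4 of 6 treated steers above all control steers, and it showed a tendency of 1.84 ± 0.64 (95% interval 0.50 to 3.18; edgeR adjusted p = 0.0809). SLC2A2, the basolateral exit transporter GLUT2, was at 34.0, 94.9, 5.41, 121 and 2.79 CPM against 95.8, 221 and 308 CPM (2.00 ± 0.80, edgeR adjusted p = 0.115). SLC2A5, the fructose transporter, has 2 identifiers in the table, both tested and neither called, with log2 differences of 0.79 ± 0.66 (edgeR adjusted p = 0.441) for the one with the higher control level and 1.70 ± 1.34 (edgeR adjusted p = 0.411) for the other. The first stands for SLC2A5 on the list. As with LCT, control steers 1, 3 and 5 held the lowest SLC5A1 and SLC2A2 levels. These transcripts were thus low in the same libraries in which the follicle transcripts were high. APOA1 was likewise lowest in control steers 1, 3 and 5, at 10400, 5520 and 505 CPM. Its level in control steer 1 was close to the 10600 CPM of control steer 4.

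Among 10 regulators of these genes all 10 log2 differences were above 0 and 1 rose, with 3 tendencies. KAT2B, a histone acetyltransferase, was at 31.6, 48.2, 28.3, 31.0 and 36.5 CPM in control steers and at 42.7, 65.9 and 80.4 CPM in treated steers. Of the 6 treated steers, 5 exceeded every control steer, and KAT2B rose by 0.86 ± 0.22 (edgeR adjusted p = 0.0396). GATA4, the transcription factor that marks jejunal against ileal identity, was at 106, 241, 109, 239 and 92.2 CPM against 182, 267 and 373 CPM, a tendency of 0.83 ± 0.30 (edgeR adjusted p = 0.0902), and GATA6 showed one of 1.02 ± 0.32 (edgeR adjusted p = 0.062). CDX2, a master regulator of intestinal identity, had a log2 difference of 0.48 ± 0.27 (edgeR adjusted p = 0.248). The median over the 10 regulators was 0.84 with all steers and 0.32 without control steers 1, 3 and 5.

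Genes for the digestion and uptake of protein gave no call in edgeR, while DESeq2 called 1 peptidase and 3 transporters higher. Of 13 brush border peptidases, 11 were above 0 with a median of 0.84, and MEP1B, a meprin, showed the only tendency (85.4, 241, 56.2, 169 and 32.4 CPM in control steers against 216, 248 and 518 CPM, 1.34 ± 0.47, edgeR adjusted p = 0.0817). Of 20 peptide and amino acid transporters, 14 were above 0 with a median of 0.52 and 3 tendencies. SLC38A2, a sodium-coupled carrier of small neutral amino acids, was at 175, 142, 92.3, 153 and 104 CPM against 169, 198 and 251 CPM (0.59 ± 0.19, edgeR adjusted p = 0.0601). SLC3A1, the heavy chain of the cystine and basic amino acid exchanger, had a log2 difference of 1.40 ± 0.47 (edgeR adjusted p = 0.0754).

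Transcripts that cells are known to raise when amino acids are short had a median of -0.23 over 17 genes. ATF4, the transcription factor at the head of that response, was at 323, 283, 314, 326 and 377 CPM in control steers and at 205, 274 and 374 CPM in treated steers (-0.19 ± 0.16, edgeR adjusted p = 0.463). The 2 genes of the list that fell were PHGDH and PSAT1, the first enzymes of serine synthesis. PHGDH was at 96.3, 4.32, 191, 17.4 and 105 CPM in control steers against 3.41, 9.93 and 20.9 CPM in treated steers (-2.95 ± 0.75, edgeR adjusted p = 0.0396), and PSAT1 fell by 2.07 ± 0.59 on the log2 scale (edgeR adjusted p = 0.0468). Both were high in control steers 1, 3 and 5 and within the treated range in control steer 2, and with the follicle score as a covariate their log2 differences turned to 0.62 for PHGDH and 0.40 for PSAT1, neither of them called.

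Lipid and energy metabolism held 1 call in edgeR, among the PPAR targets. Of 17 genes for fat absorption and chylomicrons, 16 were above 0 (median 0.89) and none was called, and this median was 0.02 without control steers 1, 3 and 5. All 19 genes of fatty acid oxidation and PPAR targets were above 0 (median 0.47) and 1 rose. That gene was PPARGC1A, a coactivator that drives mitochondrial and oxidative programmes, at 4.61, 6.88, 7.92, 9.18 and 8.30 CPM in control steers and at 9.97, 12.9 and 21.6 CPM in treated steers. The groups did not overlap and PPARGC1A rose by 0.98 ± 0.26 (edgeR adjusted p = 0.0416), a call lost after length correction (0.75, edgeR adjusted p = 0.108). Sphingolipid metabolism (30 genes, median 0.55), the TCA cycle (27 genes, median 0.23) and oxidative phosphorylation (44 genes, median 0.06) had no call in edgeR, with 1, 2 and 0 tendencies, and DESeq2 called 1, 2 and 0 genes higher. Of the sphingolipid genes 12 of 30 were nominally higher, against 11.7% of all genes. GLB1, the lysosomal beta-galactosidase, was at 62.3, 58.1, 53.7, 69.2 and 52.4 CPM against 71.9, 74.6 and 129 CPM, without overlap but only as a tendency (0.51 ± 0.18, edgeR adjusted p = 0.0843). Of 23 genes of vitamin A and xenobiotic metabolism 1 rose. RDH11, a retinal reductase, was at 18.1, 27.6, 14.7, 23.5 and 13.3 CPM against 34.1, 41.9 and 51.2 CPM, again without overlap (1.14 ± 0.26, edgeR adjusted p = 0.0354).

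Cell junctions held 4 of the 12 listed genes that rose. Of 29 tight junction genes 26 were above 0 with a median of 0.77, 3 rose, 7 showed a tendency to be higher, and 17 were nominally higher. The mean log2 CPM of the list ran from 4.15 to 5.07 (median 4.52) in the control group and from 5.11 to 5.66 (median 5.29) in the casein + GLP-2 group, so that the groups lay apart by a narrow gap. AMOTL2, which ties junctions to the actin belt and to Hippo signalling, was at 20.2, 19.3, 12.7, 17.2 and 16.8 CPM in control steers and at 25.4, 29.6 and 46.0 CPM in treated steers, with no overlap (0.87 ± 0.21, edgeR adjusted p = 0.0366). PRKCI, the atypical protein kinase C of the polarity complex, was at 26.7, 37.6, 16.7, 32.1 and 15.7 CPM against 36.4, 50.8 and 64.1 CPM (0.96 ± 0.23, edgeR adjusted p = 0.0373). MAGI3, a scaffold of the junction, rose by 0.92 (edgeR adjusted p = 0.0453). After the correction for gene length 1 tight junction gene was still called, PRKCI, and AMOTL2 was not (0.63, edgeR adjusted p = 0.104). CLDN7, a claudin and the most abundant gene of the list, was at 272, 311, 190, 383 and 166 CPM against 323, 471 and 609 CPM, a tendency of 0.83 ± 0.28 (edgeR adjusted p = 0.0738). Without control steers 1, 3 and 5 the median of the list was 0.31.

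Among 23 genes of adherens junctions and the Hippo pathway, 21 were above 0 (median 0.46), 1 rose and 5 showed a tendency. MOB1B, a cofactor of the LATS kinases of the Hippo pathway, was at 57.0, 85.0, 41.8, 78.3 and 32.7 CPM in control steers and at 81.2, 117 and 163 CPM in treated steers (1.00 ± 0.27, edgeR adjusted p = 0.042), a call that the length correction ended (0.73, edgeR adjusted p = 0.105). CDH1, the E-cadherin that holds epithelial cells together, was at 463, 519, 185, 645 and 116 CPM against 584, 790 and 1250 CPM, a tendency of 1.11 ± 0.37 (edgeR adjusted p = 0.0719). The 17 genes of the microvillus cytoskeleton had a median of 0.80 and no call, with a value of 0.68 ± 0.49 for VIL1 (edgeR adjusted p = 0.364), and the median of the list was 0.14 without control steers 1, 3 and 5.

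The receptor for GLP-2 itself was scarce and did not differ detectably. GLP2R was at 5.01, 3.09, 2.82, 11.3 and 9.85 CPM in control steers and at 1.63, 5.38 and 14.2 CPM in treated steers, so that the treated range enclosed the control range, and its log2 difference was 0.07 ± 0.68 with a 95% interval from -1.36 to 1.5 (edgeR adjusted p = 0.956). Of 19 tested genes for the receptor and the relays proposed for it, 3 rose, none fell and the median was 0.01. All 3 encode receptors. VIPR1 (ENSBTAG00000006567, chr22:14658102-14689960, plus strand), a receptor for vasoactive intestinal peptide, was at 42.8, 92.8, 42.0, 71.3 and 33.8 CPM in control steers and at 90.6, 150 and 237 CPM in treated steers. Of the 6 treated steers, 5 exceeded every control steer, and VIPR1 rose by 1.43 ± 0.32 (edgeR adjusted p = 0.0354). ERBB3, a receptor for neuregulins, was at 265, 373, 182, 242 and 125 CPM against 296, 521 and 892 CPM (1.25 ± 0.34, edgeR adjusted p = 0.042), and ERBB2, its signalling partner, rose by 0.97 (edgeR adjusted p = 0.0464). After length correction VIPR1 was the only call of the 19 genes, and ERBB3 stood at 1.05 (edgeR adjusted p = 0.0721). EGFR, the receptor of the same family that binds epidermal growth factor, had a log2 difference of 1.60, just short of a call (edgeR adjusted p = 0.0508).

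Downstream of the insulin receptor the transcripts did not share its rise. Of 20 genes of the insulin and PI3K pathway, INSR was the only call, 12 were above 0 and the median was 0.28. AKT1, the kinase through which insulin signals to growth, was at 170, 172, 199, 169 and 232 CPM in control steers and at 142, 151 and 162 CPM in treated steers. Its groups did not overlap, but the difference of -0.31 ± 0.14 did not pass the test (edgeR adjusted p = 0.142). PRKAB1, a regulatory subunit of AMP-activated kinase, was at 63.0, 55.0, 55.6, 55.7 and 65.8 CPM against 37.2, 43.5 and 49.0 CPM, also without overlap, a tendency of -0.43 ± 0.14 (edgeR adjusted p = 0.0704).

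Genes of cell division were lower. Of 40 DNA replication genes, 39 were below 0 with a median of -1.11 and 18 fell, including the MCM2 to MCM7 helicase subunits, PCNA, FEN1 and the GINS2 and GINS4 subunits. MCM7, a subunit of the replicative helicase, was at 157, 50.8, 257, 57.3 and 179 CPM in control steers and at 32.8, 42.5 and 60.3 CPM in treated steers (-1.66 ± 0.39, edgeR adjusted p = 0.0354). Control steers 1, 3 and 5 stood above every treated steer, while control steers 2 and 4 lay within the treated range. GINS4, a subunit of the same helicase complex, was at 8.47, 3.09, 9.57, 4.05 and 14.7 CPM against 1.97, 2.36 and 2.92 CPM, with no overlap (-1.73 ± 0.38, edgeR adjusted p = 0.0354). Of 34 mitotic genes all 34 were below 0 (median -0.94) and 3 fell, AURKB, CDC20 and NUSAP1. MKI67, the proliferation marker with the highest level in the list, was at 164, 99.8, 281, 74.8 and 309 CPM against 67.2, 86.6 and 163 CPM and did not pass the test (-0.91 ± 0.42, edgeR adjusted p = 0.162). Without control steers 1, 3 and 5 the median of the replication genes was -0.15 and that of the mitotic genes was 0.16.

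Wnt pathway and crypt stem cell genes were scattered, with 9 of 27 above 0, a median of -0.49 and 2 that fell. CD44, a hyaluronan receptor of crypt cells that lymphocytes and stroma also carry, was at 84.5, 39.4, 145, 57.9 and 133 CPM against 22.8, 36.7 and 54.8 CPM (-1.30 ± 0.33, edgeR adjusted p = 0.0383). BMI1, a Polycomb protein, was at 49.8, 33.8, 33.0, 29.7 and 46.9 CPM against 19.7, 23.8 and 28.0 CPM, without overlap (-0.69 ± 0.20, edgeR adjusted p = 0.0498). LGR5, the receptor that marks cycling crypt base stem cells, had a log2 difference of -2.81 that did not pass the test (edgeR adjusted p = 0.23).

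Of the 37 lists, cytosolic ribosomal proteins, the longest list, held the most calls, while follicle genes had a larger share that fell, 20 of 27. All 73 ribosomal protein genes tested were below 0, with a median of -1.05. Of these 73 genes, 42 fell, against 3.88% of all genes, 69 were nominally lower, and DESeq2 called 66. Their differences lay between -1.50 and -0.22. RPL8 was at 1760, 677, 2600, 964 and 2520 CPM in control steers and at 449, 605 and 862 CPM in treated steers (-1.44 ± 0.32, edgeR adjusted p = 0.0354), and RPS2 was at 4320, 1790, 5850, 2560 and 4850 CPM against 1120, 1720 and 2400 CPM (-1.16 ± 0.31, edgeR adjusted p = 0.0412). In both, control steer 2 lay within the treated range and control steer 4 just above it. Ribosomal protein genes have many near-identical processed copies in mammalian genomes, among which reads can be split, so single genes of this list are uncertain. The mean log2 CPM of the list ran from 9.09 to 10.57 in the control group and from 8.55 to 9.64 in the casein + GLP-2 group. Without control steers 1, 3 and 5 the median difference was -0.31 with no call.

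The supporting factors went the same way with smaller sizes. Of 48 ribosome biogenesis genes, 46 were below 0 (median -0.75) and 6 fell, among them FBL, the fibrillarin that methylates ribosomal RNA (-1.62 ± 0.38, edgeR adjusted p = 0.0354). PPAN, an assembly factor of the large ribosomal subunit, was at 30.7, 21.3, 59.0, 20.1 and 38.2 CPM in control steers against 10.6, 14.2 and 21.2 CPM in treated steers (-1.19 ± 0.29, edgeR adjusted p = 0.0366). NCL, the nucleolin, was at 475, 241, 548, 235 and 366 CPM against 153, 187 and 266 CPM (-0.89 ± 0.24, edgeR adjusted p = 0.0416). Of 33 translation factors 10 fell (median -0.57), such as EEF1G, a subunit of the elongation factor that reloads EEF1A1, by 1.24 ± 0.30 on the log2 scale (edgeR adjusted p = 0.0366). Of 51 mitochondrial ribosomal protein genes 6 fell (median -0.45), and MRPS18B was at 20.4, 11.9, 12.8, 21.2 and 17.2 CPM against 6.76, 9.12 and 11 CPM, without overlap (-0.89 ± 0.23, edgeR adjusted p = 0.0403). Of 49 spliceosome genes 9 fell (median -0.47), with U2AF1, which reads the 3' splice site, at 114, 52.2, 107, 77.8 and 94.9 CPM against 46.8, 54.0 and 59.2 CPM (-0.74 ± 0.17, edgeR adjusted p = 0.0354).

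Markers of lymphoid follicles had the lowest median of the 37 lists. All 27 were below 0 with a median of -4.20, 20 fell and DESeq2 called 25. CCL19, a chemokine that draws lymphocytes and dendritic cells, had a log2 difference of -8.21 (edgeR adjusted p = 0.0354), and CXCL13, the chemokine that organises B cell follicles, one of -7.64 (edgeR adjusted p = 0.0366). SPIB, a transcription factor of B cells that M cells over the patches also use, was at 226, 62.1, 536, 90.3 and 252 CPM in control steers and at 54.6, 78.0 and 86.8 CPM in treated steers (-1.68 ± 0.43, edgeR adjusted p = 0.0396). Control steer 2 was again inside the treated range, and without control steers 1, 3 and 5 the median of the list was -0.87 with no call. Those steers had the highest scores on this same list, so a median nearer to 0 without them was built in.

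Other immune cells differed less. Of 13 plasma cell genes 2 fell, DERL3 and TXNDC5, both of protein folding in the endoplasmic reticulum, with a list median of -0.61. JCHAIN, which joins the units of secreted IgA, was at 1580, 62.1, 1600, 571 and 5110 CPM in control steers and at 49.2, 312 and 747 CPM in treated steers, and it did not pass the test (-2.35 ± 0.90, edgeR adjusted p = 0.103). None of 24 genes of T cells and intraepithelial lymphocytes was called by edgeR (median -0.08) and DESeq2 called 1 lower, with CD3E at 536, 634, 271, 371 and 319 CPM against 281, 328 and 504 CPM (-0.29 ± 0.28, edgeR adjusted p = 0.506). CD5, a coreceptor of T cells, was the list's only tendency, at 67.1, 73.0, 80.4, 54.4 and 101 CPM against 32.8, 49.5 and 53.3 CPM (-0.71 ± 0.22, edgeR adjusted p = 0.0601). The 17 macrophage and dendritic cell genes (median 0.07) and the 32 interferon stimulated genes (median 0.08) had neither a call nor a tendency.

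Muscle and connective tissue genes were lower on the median. All 17 smooth muscle genes were below 0 (median -1.73), with 1 call and 10 tendencies in edgeR and 11 calls in DESeq2. MYL9, a light chain of non-sarcomeric myosin, was at 76.8, 78.8, 229, 86.4 and 224 CPM in control steers and at 36.4, 59.9 and 73.1 CPM in treated steers, without overlap (-1.28 ± 0.31, edgeR adjusted p = 0.0366). All 22 stromal and collagen genes were below 0 (median -1) with 1 call, THY1, a surface glycoprotein of fibroblasts and lymphocytes, which was at 26.3, 0, 123, 3.83 and 72.7 CPM against 0.284, 0.423 and 1.95 CPM (-5.81 ± 1.31, edgeR adjusted p = 0.0354). Of 14 endothelial genes 13 were below 0 (median -1.05) and none was called. Without control steers 1, 3 and 5 these 3 medians were 0.16, 0.13 and 0.35, opposite in sign to those with all steers. Control steers 3 and 5 had the highest control scores on all 3 lists, so an upward move of these medians without them was built in.

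Secretory cell markers held single calls. Of 10 goblet cell genes 9 were above 0 (median 0.41) and CREB3L1, a transcription factor of secretory cells, rose from 43.4, 75.6, 41.2, 109 and 47.0 CPM in control steers to 86.7, 132 and 167 CPM in treated steers (1.08 ± 0.29, edgeR adjusted p = 0.0412). None of 12 enteroendocrine genes was called (median 0.04), with CHGA, the chromogranin of their granules, at 51.8, 29.9, 59.5, 34.1 and 59.9 CPM against 26.9, 49.3 and 80.8 CPM. LRMP was the only call of 7 genes on the tuft cell list, at 179, 22.1, 178, 40.4 and 128 CPM against 14.6, 24.8 and 36.6 CPM (-2.14 ± 0.56, edgeR adjusted p = 0.0396). It is also a protein of lymphocytes, and control steers 1, 3 and 5 held its highest levels. Among 9 genes of ileal bile acid handling 7 were above 0 (median 0.45), and FABP6 was the only call, at 110, 0.794, 221, 18.4 and 13.3 CPM against 0.173, 1.03 and 8.82 CPM (-5.09 ± 1.25, edgeR adjusted p = 0.0373).

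**Figure D5:**
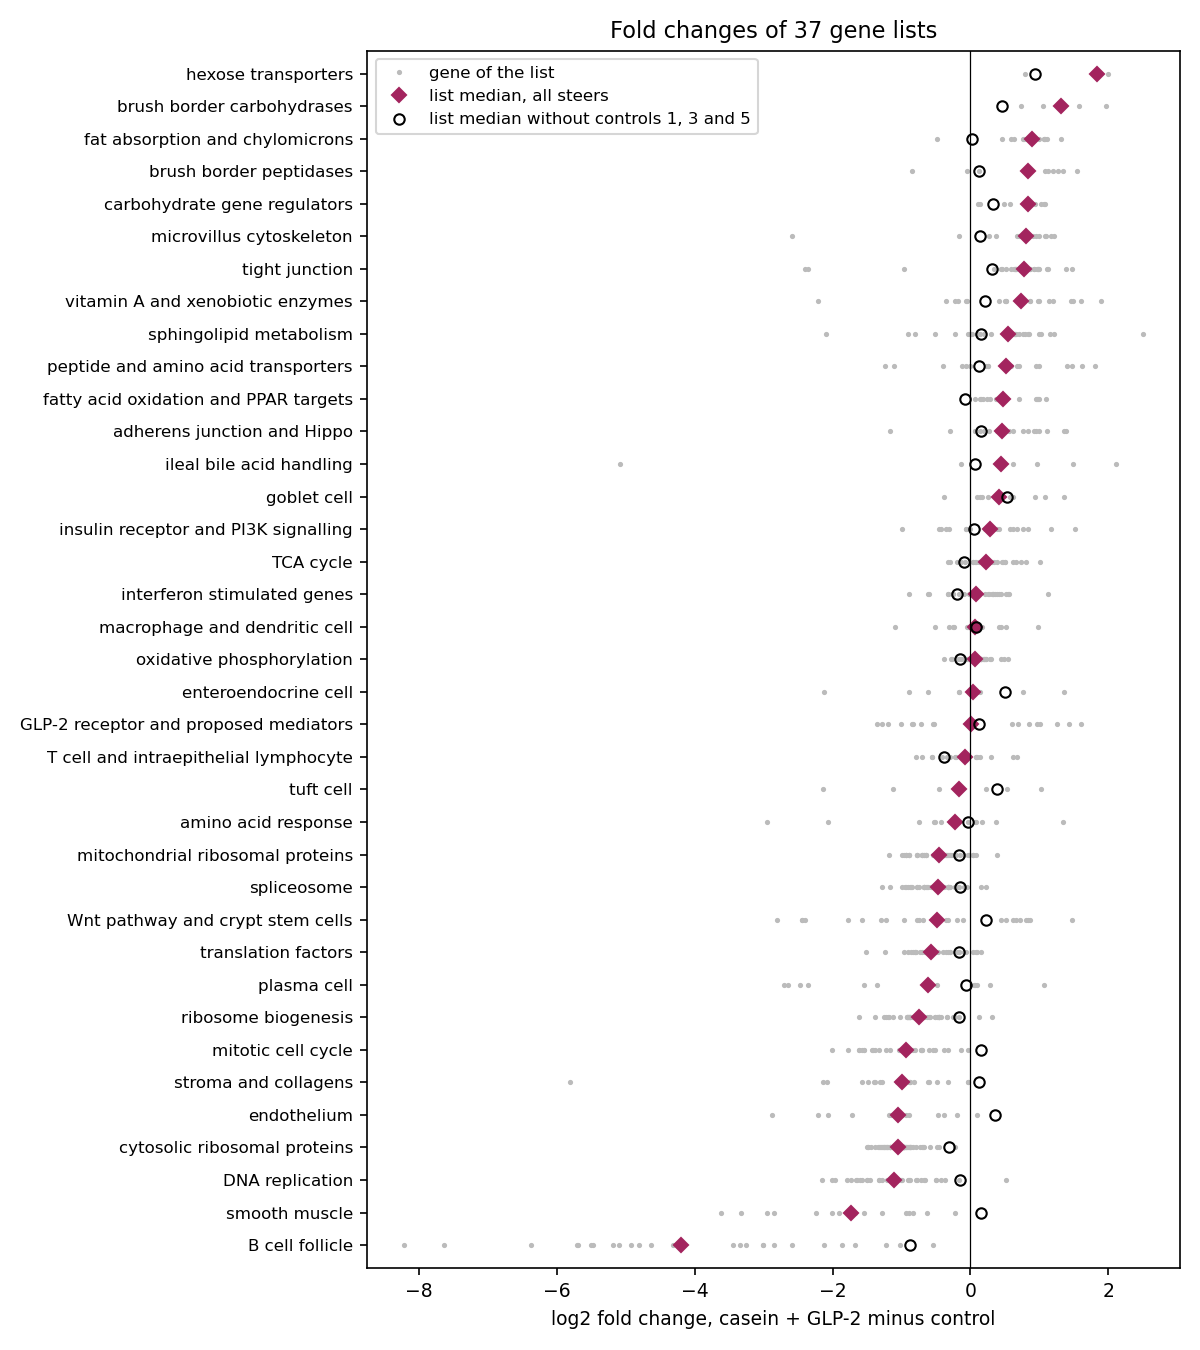
Log2 difference of casein + GLP-2 from control (horizontal axis) for every tested gene of 37 lists, with the median of each list over all steers and the median without control steers 1, 3 and 5. Follicle (-4.20), smooth muscle (-1.73) and replication (-1.11) genes lie furthest below 0 with all steers, and their medians without these 3 control steers are -0.87, 0.16 and -0.15.

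Against GLP-2 alone, the combined treatment differed in no gene (edgeR, smallest adjusted p 0.203), 398 genes were nominally different (2.64% of those tested, 128 higher and 270 lower), and DESeq2 called 5. Against casein alone edgeR called none either (smallest adjusted p 0.0627), but 3637 genes were nominally different (24.1%, 1491 higher and 2146 lower) and DESeq2 called 891. The test of whether casein and GLP-2 together departed from the sum of their separate differences called no gene in edgeR (smallest adjusted p 0.956), with 645 nominal genes and 2 called by DESeq2. Neither single treatment had a call against control in edgeR, with 2103 nominally different genes for GLP-2 and 854 for casein. The 3 comparisons with control share the 5 control steers, so the values below are set side by side and their likeness is not tested.

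For the 12 leading higher genes the log2 difference from control was 1.46 on the median with both treatments, 0.94 with GLP-2 alone and 0.58 with casein alone. These genes were chosen with the same 6 casein + GLP-2 steers that enter the direct comparisons, so their direct differences are given as a description. They were 0.01 to 0.82 against GLP-2 alone, highest in KIF3B (0.82) with POFUT1 at 0.66, and 0.24 to 1.17 against casein alone. INSR had the same log2 difference from control, 1.51, with both treatments and with GLP-2 alone, under which its median was 20.6 CPM. MFSD11 ranged from 59.1 to 76.7 CPM with GLP-2 alone and from 37.6 to 61.0 CPM with casein alone, against 62.7 to 82.9 CPM with both. For the 12 leading lower genes the medians were -1.64, -1.37 and -0.98 in the same order.

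Hexose transport was where the combined group stood furthest from GLP-2 alone among the carbohydrate genes. SLC5A1 had a median of 597 CPM (357 to 1070) with GLP-2 alone, of 315 CPM (79.9 to 953) with casein alone and of 1780 CPM (647 to 2860) with both. Its log2 difference from GLP-2 alone was 1.22 ± 0.62 (unadjusted p = 0.0641, edgeR adjusted p = 0.995) and from casein alone 2.13 ± 0.60 (unadjusted p = 0.0019, edgeR adjusted p = 0.118), and the test of departure from the sum gave an unadjusted p of 0.096. KAT2B was higher with both than with GLP-2 alone by 0.48 (unadjusted p = 0.0388 in edgeR) and than with casein alone by 0.80 (unadjusted p = 0.000861 in edgeR). The median over the 4 carbohydrases was 0.26 against GLP-2 alone and 1.15 against casein alone. Brush border peptidases ran the other way, with a median of -0.94 against GLP-2 alone, from which 4 of 13 genes differed nominally. Summed over the 13 genes, however, the group medians were close, at 5110 CPM with GLP-2 alone and 5260 CPM with both. GLP-2 steers 3 and 6 stood highest, at 18600 and 10100 CPM. No single gene passed the adjusted threshold in these edgeR comparisons with GLP-2 alone or casein alone.

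The lists with many calls are set against each single treatment as a description, since the same 6 casein + GLP-2 steers enter each comparison. For cytosolic ribosomal proteins the median was -0.42 against GLP-2 alone, with 1 of 73 genes nominally different, and -0.90 against casein alone, with 67 of 73. Follicle genes had a median of 0.01 against GLP-2 alone (0 of 27 genes) and of -2.55 against casein alone (21 of 27). Their summed level ran from 170 to 272 CPM with GLP-2 alone and from 205 to 3630 CPM with casein alone. The 3630 CPM came from casein steer 3 only, the next highest casein steer was at 505 CPM, and the median with casein alone was 323 CPM. With both treatments the median was 195 CPM. Tight junction genes had medians of 0.17 (0 of 29) and 0.59 (17 of 29), and DNA replication genes of -0.19 (0 of 40) and -0.77 (25 of 40). Of the 132 genes named by rule, 7 departed nominally from the sum, against 645 of all 15086 genes tested, and the shares were similar. The 7 were HTR6, MEF2B, CORO1A, PLIN2, EPS8, MRPS18B and CHGA. HTR6 (unadjusted p = 0.00559 in edgeR) and CHGA (unadjusted p = 0.00616 in edgeR) had the smallest p of the 7 for that departure, and none of the 7 passed the adjusted threshold.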

How the data were processed

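Data of 22 steers were used, from strand-specific, poly(A)-selected paired-end libraries of jejunal mucosa RNA. Per the labels and methods, the authors aligned reads to ARS-UCD1.2 with HISAT2 2.0.5 and obtained raw gene counts with featureCounts 1.5.0-p3, and the authors derived the deposited FPKM values (fragments scaled by gene length and library size) from those counts and gene lengths. StringTie 1.3.3b and DESeq2 1.20 appear among the tools in the submitters' processing notes. Counts were used for all results and FPKM only in an alternative. A further control steer was left unsequenced by the study for low RNA integrity, and the integrity of each sequenced sample is not given in the sources used here. The group with GLP-2 alone holds no steer of block 2. The study counted more GLP-2 injected steers than these data hold. No 2 libraries held identical values, and 0 columns belonged to samples of another series.

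Genes were filtered with filterByExpr (minimum count 10), scaled by TMM and tested with edgeR 4.0.16 in R 4.3.3 (glmQLFit, glmQLFTest) in 1 model of 4 treatments over 22 steers, with Benjamini-Hochberg adjustment over 15086 genes, calls at 0.05 or below and tendencies at up to 0.1. Contrasts were casein + GLP-2 minus control, minus GLP-2, minus casein, and the interaction. A list score is the mean log2 CPM (prior count 2) of a list's tested genes. The scripts were tested on simulated data. Precision is limited by the depth and by 5 and 6 steers per group, and p-values measure the spread between steers.

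Named genes were the 12 higher and 12 lower genes with a symbol, a mean of at least 1 CPM and the smallest p, the study's starch digestion genes with GLP2R (1 of them is not reported here), and from each list the 2 genes of smallest p and the most abundant one. Of 964 listed symbols 922 were in the table, and 12 symbols had several identifiers. MAGI3, ERBB2, EGFR, LGR5, CCL19, CXCL13, NUSAP1, FEN1, GINS2 and MCM2 to MCM6 were named outside this rule after their values were seen. The comparison, lists and tests were chosen with earlier results of these data known.

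The body-weight block pairs steers by design. Deviations from the group means of same-block steers of the 2 groups correlated at 0.0787, 0.385, -0.309, -0.0513 and 0.318 in blocks 1 to 5 (mean 0.0843, against -0.017 over 25 other pairs). Alternatives were other scalings and filters, the block, a loess correction for gene length (span 0.3), a robust spread estimate, only the 2 treatments, DESeq2 1.42.0, limma 3.58.1 on log2(FPKM + 1) and log2(FPKM + 0.1), follicle or smooth muscle scores as covariates, and leaving out each steer. Leaving out control steers 3 and 5, or 1, 3 and 5, was added after seeing the data.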

Additional observations from a re-analysis of the deposited data

Results flagged for a closer look

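Among 264 combinations of a named gene and a treatment group (casein + GLP-2 or control), 7 held a steer that stood apart from the rest of its group by Dixon's criterion at the 95% level, which chance alone would meet in about 1 of 20 groups. All values here are log2 CPM. Of the 7, 6 were in the casein + GLP-2 group and came from 4 of its steers. Steer 1 was highest for GLB1 at 7.01 (next 6.35) and for ATP5F1A, a subunit of the mitochondrial ATP synthase, at 11.12 (next 10.68). Steer 3 was lowest for SIT1 at 3.97 (next 4.39) and highest for AMOTL2 at 5.53 (next 5). Steer 4 was lowest for SLC2A5 at -1.66 (next 2.93), a value of 1 of its 2 identifiers. Steer 6 was lowest for SI at 9.54 (next 10.07). In the control group, steer 2 was lowest for COL3A1, a fibrillar collagen, at 5.43 (next 8.54). No departure of the combined treatment from the sum of its parts passed the adjusted threshold in edgeR, and no cause of these values was tested.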

How the results depend on the processing

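For casein + GLP-2 against control, where 773 genes were called, other processing gave 375 calls with no filter on low counts, 1216 with at least 10 counts in every steer, 2077 with DESeq2, 1669 with DESeq2 on the 2 treatments only, and 7 and 6 with limma on log2(FPKM + 1) and log2(FPKM + 0.1). The replicate block gave 0 calls, as did the replicate block with gene length correction, only the 2 treatments compared (smallest adjusted p 0.0741), the follicle score or the smooth muscle score as a covariate, and leaving out control replicates 3 and 5 or 1, 3 and 5. A threshold of 0.10 gave 2153 calls and no adjustment 4184. Leaving out 1 steer at a time gave 0 to 3449 calls. Against GLP-2 alone, DESeq2 called 5 genes and leaving out 1 steer gave 0 to 1. Against casein alone, DESeq2 called 891, leaving out control replicates 3 and 5 gave 2, and leaving out 1 steer gave 0 to 1. For the interaction DESeq2 called 2. The replicate block changed no other call, since these had none. Named log2 differences that changed sign with the follicle score as a covariate, lying beyond 1 SE or called on both sides, were -0.39 for TREH, 0.62 for PHGDH, 0.40 for PSAT1, -0.34 for SDHA, -0.52 for VIL1, 1.33 for JCHAIN, 0.82 for CD14, 1.77 for CLDN5, 1.93 for SCG2 and -0.77 for RBP2. List medians that changed sign with it were -0.08 for peptidases, -0.22 for fat absorption, -0.30 for fatty acid oxidation, -0.28 for microvilli, 0.16 for Wnt, 0.37 for mitosis, 0.14 for plasma cells, 0.76 for smooth muscle, 1 for stroma, 0.98 for endothelium, -0.38 for ileal genes, -0.26 for vitamin A, -0.28 for the TCA cycle, -0.34 for oxidative phosphorylation, -0.14 for enteroendocrine, 0.26 for tuft cell and -0.03 for interferon genes. Without control replicates 3 and 5 they were 0.15 for Wnt, 0.09 for smooth muscle, 0.25 for endothelium, -0.05 for the TCA cycle, -0.13 for oxidative phosphorylation and -0.23 for interferon genes. Without 1, 3 and 5 they were -0.08 for fatty acid oxidation, 0.23 for Wnt, 0.16 for mitosis, 0.16 for smooth muscle, 0.13 for stroma, 0.35 for endothelium, -0.10 for the TCA cycle, -0.15 for oxidative phosphorylation, 0.38 for tuft cell and -0.20 for interferon genes. With the smooth muscle score they were 0.10 for endothelium, -0.02 for oxidative phosphorylation, -0.04 for enteroendocrine and -0.01 for interferon genes. The cause of these changes was not tested. With 5 and 6 steers, wide intervals such as that of GLP2R leave sizeable differences undetected.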
